A study of Mus musculus with 16 samples.

Results

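Genes of interneurons born in the caudal ganglionic eminence were followed across GABAergic cells sorted from newborn mouse brain. The 6 genes were Nr2f1, Nr2f2, Prox1, Npas1, Htr3a and Reln, listed by name, with earlier results of these data known. Every non-control probe that the array names after one of them, or after an older synonym, was taken, which gave 11 of 41173 probes, or 6 of 28655 genes and unnamed sequences on the array. Nr2f1, Npas1 and Htr3a had 1 probe each, Reln had 2, and Nr2f2 and Prox1 had 3 each, numbered here from the brightest to the dimmest. The third Nr2f2 probe carries an older name of the gene (2700033K02Rik) on the array. Probes named Ear3 were left out, since that symbol is a ribonuclease gene as well as a synonym of the Nr2f genes. Of the 11 probes, 10 passed the filter on dim probes, while Reln probe 2 was well above background on 1 of 16 arrays in the sorted cells and on 0 of 16 in the reference, and no fold is given for it. Probes of 1 gene share their transcript source, so the 10 probes are not 10 independent observations.

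The study used GAD67-eGFP mice, whose GABA-producing neurons carry a green fluorescent reporter named for GAD67 (Gad1), an enzyme that makes the inhibitory transmitter GABA. How the reporter was placed under the control of that gene is not stated in the labels. All animals were kept on a C57Bl/6 background, and all groups were taken at postnatal day 1 with no treatment. Fluorescent cells were sorted from the whole brains of 4 mice (4 arrays) and, after dissection of the brains of 6 mice, from cerebellum, striatum, cortex and olfactory bulb (3 arrays each), with each array called a biological replicate in the labels. On every array, cDNA amplified by a global PCR from the mRNA of sorted cells (Cy5) was hybridised against cDNA amplified in the same way from whole brain RNA of 4 age-matched mice (Cy3), the common reference. The labels do not say whether arrays share animals or pool them, so the p-values cover the spread between these samples. The gate is the reporter alone, so that each sort mixes all GABAergic lineages of its region. The direction is taken from the dye names, which the labelling protocol also gives, although the labels call both dyes red. A log2 ratio above 0 is thus a higher signal in sorted cells than in the reference, and in such bulk samples fewer cells of a type and less RNA per cell cannot be told apart.

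The caudal ganglionic eminence is an embryonic progenitor zone of the ventral forebrain that supplies part of the interneurons of the cortex and also contributes cells to other forebrain regions. Nr2f1 and Nr2f2 (COUP-TFI and COUP-TFII) are orphan nuclear receptors that guide the identity and migration of its cells. Prox1 is a homeodomain transcription factor kept on in many of these interneurons, and Npas1 is a basic helix-loop-helix PAS repressor. Htr3a encodes the ion channel subunit of the serotonin 3 receptor, the marker of this interneuron class, and Reln encodes the secreted glycoprotein reelin, which steers neuronal layering. None of these genes is limited to that lineage: Nr2f2 is also a gene of venous endothelium, Prox1 of dentate granule cells, and Reln of Cajal-Retzius cells and cerebellar granule cells.

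The labels were checked against GABAergic genes first. Gad1, the gene behind the reporter, was higher than in the reference in all 4 dissected regions (0.79 to 0.91) but was at -1.51 ± 0.08 (SE) in the whole-brain sort, which goes against that sort's label, and Gad2 was at -0.28 ± 0.07 there. Slc32a1, the vesicular GABA transporter, was higher in whole brain by 1.21 ± 0.07. Of 7 GABAergic genes, 7 were higher in each forebrain region, 6 in cerebellum and 5 in whole brain (34.1% to 34.8%, 38.8% and 41.2% of all probes tested). All 4 whole-brain arrays were scanned on one day and all 12 regional arrays on another, so that differences between whole brain and the regions cannot be told apart from the scan day. The median spot signal was 150.9 to 717.5 units for the sorted cells and 92 to 254 units for the reference, with 78.1% to 96.6% and 72.1% to 90.7% of spots well above background. Arrays of 1 group correlated at Pearson's r of 0.934 to 0.992 across probes, which are not independent. Striatum replicate 2 was quantified with another software protocol and grid placement mode than the other 15 arrays, and results on striatum without it are covered in the closing section.

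The sequences around the gene starts are shown because several members shared a low level in olfactory bulb (among them Nr2f1, the brighter Nr2f2 probes and Prox1), while Reln had its highest level in cerebellum. The RefSeq promoter table (build GRCm38.p6) holds windows from 250 bases before to 50 bases after a start for 5 of the 6 genes, Htr3a being without an entry. The motifs searched, on both strands, were the nuclear receptor core AGGTCA, the basic helix-loop-helix PAS core ACGTG, the homeodomain core TAATTA and the GC box GGGCGG. Capitals mark the matches. The windows lie on the minus strand at chr5:22344656-22344955 for Reln, chr13:78198824-78199123 for Nr2f1, chr7:70366697-70366996 for Nr2f2 and chr1:190170778-190171077 for Prox1, and are written 5′ to 3′ along the gene.
Reln: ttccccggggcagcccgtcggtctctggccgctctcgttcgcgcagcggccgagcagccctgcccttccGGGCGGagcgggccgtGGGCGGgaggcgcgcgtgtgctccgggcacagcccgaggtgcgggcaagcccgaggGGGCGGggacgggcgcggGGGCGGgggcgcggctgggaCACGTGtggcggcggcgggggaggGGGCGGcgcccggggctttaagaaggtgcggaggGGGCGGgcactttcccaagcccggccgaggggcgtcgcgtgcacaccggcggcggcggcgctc
Nr2f1: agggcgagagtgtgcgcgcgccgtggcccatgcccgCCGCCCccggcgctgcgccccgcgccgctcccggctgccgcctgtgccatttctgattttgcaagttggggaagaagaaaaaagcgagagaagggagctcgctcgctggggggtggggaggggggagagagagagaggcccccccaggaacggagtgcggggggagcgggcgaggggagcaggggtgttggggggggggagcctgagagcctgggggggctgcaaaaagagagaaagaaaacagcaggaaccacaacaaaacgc
Nr2f2: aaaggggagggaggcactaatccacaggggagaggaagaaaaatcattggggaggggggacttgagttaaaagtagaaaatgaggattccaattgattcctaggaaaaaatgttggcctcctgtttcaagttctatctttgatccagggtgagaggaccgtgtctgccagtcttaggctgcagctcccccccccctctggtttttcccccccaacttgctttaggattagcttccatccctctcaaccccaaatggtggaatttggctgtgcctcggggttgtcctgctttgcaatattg
Prox1: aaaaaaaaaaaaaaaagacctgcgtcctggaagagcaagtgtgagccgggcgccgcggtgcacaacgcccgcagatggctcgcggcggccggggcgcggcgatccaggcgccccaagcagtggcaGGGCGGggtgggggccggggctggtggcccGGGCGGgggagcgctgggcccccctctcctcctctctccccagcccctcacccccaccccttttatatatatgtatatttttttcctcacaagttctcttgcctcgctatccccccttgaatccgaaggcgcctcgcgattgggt

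The Reln window held 80.7% G and C, against a median of 52.7% over 32851 promoter windows of the same length. It carried 6 GC boxes and CACGTG, in which ACGTG matches once on each strand and the matches overlap. The Nr2f1 window (68% G and C) held 1 GC box, and the Prox1 window (64.3%) held 2. The Nr2f2 window (49.7%) held none of the 4 motifs. Nr2f1 and Prox1 each have a second window in the table that is not printed, and the Npas1 window held 1 GC box. Over all windows, GGGCGG was found in 35.7%, ACGTG in 19.6%, AGGTCA in 16.3% and TAATTA in 5.29%. A match describes the letters alone.

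Against the total brain reference, most probes of the 6 genes were lower in the sorted cells. Nr2f1, Npas1 and the 2 brighter Nr2f2 probes were lower in all 5 groups, whereas Htr3a was higher in all groups but cerebellum. Calls rest on limma with a Benjamini-Hochberg adjusted p under 0.05 over all 39226 probes tested, and with so many probes called the counts carry little by themselves. In olfactory bulb 1 of 10 probes was higher and 7 were lower (34.6% and 32.8% of all probes tested), with a median of -1.42 against 0.01 over all probes. In cortex 2 were higher and 7 lower (34.8% and 33.6%), with a median of -0.67. Striatum had 2 higher and 6 lower (34.1% and 33.3%; median -0.59), and cerebellum had 1 higher and 7 lower (38.8% and 36.4%; median -0.82). In whole brain 3 were higher and 6 lower (41.2% and 38.1%; median -0.60). The shares of lower probes exceeded the background in each group, while the shares of higher probes fell below it. Dyes were not swapped, so that a dye effect of a probe stays in these ratios and cancels only between groups.

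**Figure D1:**
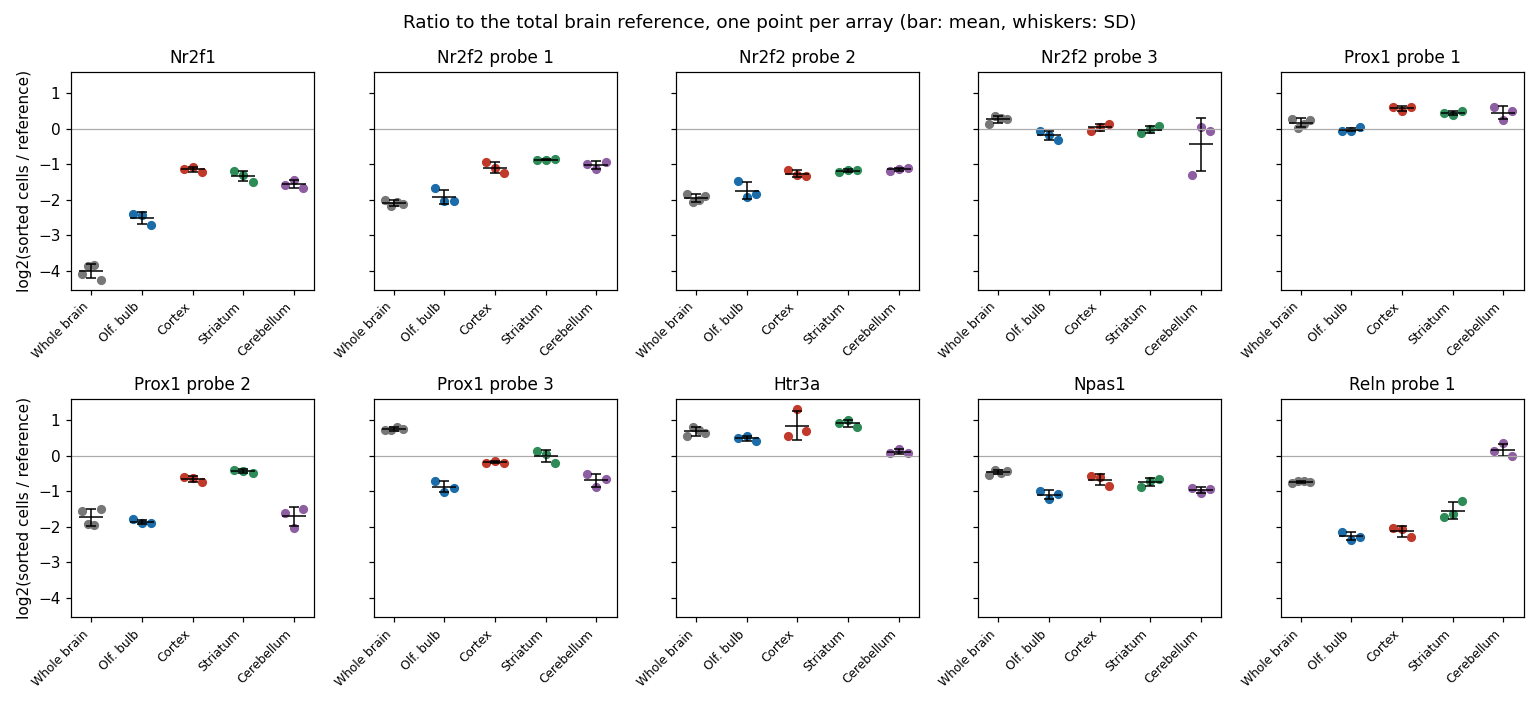
Log2 ratio of sorted cells to the total brain reference (y axis) for the 10 tested probes, by group (x axis), with 1 point per array, the mean as a bar and the SD as whiskers. Reln probe 1 lies near 0 in cerebellum and below -2 in olfactory bulb and cortex, and Nr2f1 is lowest in whole brain and next lowest in olfactory bulb.

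Among the 4 dissected regions, 9 of the 10 probes differed (moderated F test; 55.9% of all probes tested), the exception being Nr2f2 probe 3 (adjusted p = 0.216). Reln probe 1 had the widest range of region means, 2.41 on the log2 scale or 5.33-fold, wider than for 99.8% of the probes tested. Prox1 probe 2 followed with 1.42 (2.67-fold), Nr2f1 with 1.36 (2.57-fold) and Nr2f2 probe 1 with 1.04 (2.06-fold). The other called ranges ran from 0.42 for Npas1 to 0.88 for Prox1 probe 3. Olfactory bulb cells had the lowest means for Nr2f1, the 2 brighter Nr2f2 probes, the Prox1 probes, Npas1 and Reln probe 1. The bulb did not differ beyond the spread from cerebellum for Npas1 and Prox1 probes 2 and 3, or from cortex for Reln probe 1. Htr3a and Nr2f2 probe 3 had their lowest means in cerebellum.

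Olfactory bulb was lower than striatum for 9 of 10 probes (26% of all probes called in either direction) and lower than cortex for 7 (15.7%), and no probe was higher in the bulb in either comparison. Some of these calls, such as those of Prox1 probe 1, Npas1 and Htr3a against striatum, were lost under alternatives given below. Against cerebellum, 5 probes were lower in the bulb and 1 was higher (39.8%). Cortex and striatum differed for 1 probe, Reln probe 1 (17.5%). Cortex exceeded cerebellum for 5 probes and was lower for Reln probe 1 (26.5%), and striatum exceeded cerebellum for 3 and was lower for Reln probe 1 (37.2%). These 6 comparisons share arrays, so that their counts are not independent of each other. Counts against the bulb exceeded the background share most in the comparisons with cortex and striatum, whereas the 1 call between cortex and striatum lay below it.

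**Figure D2:**
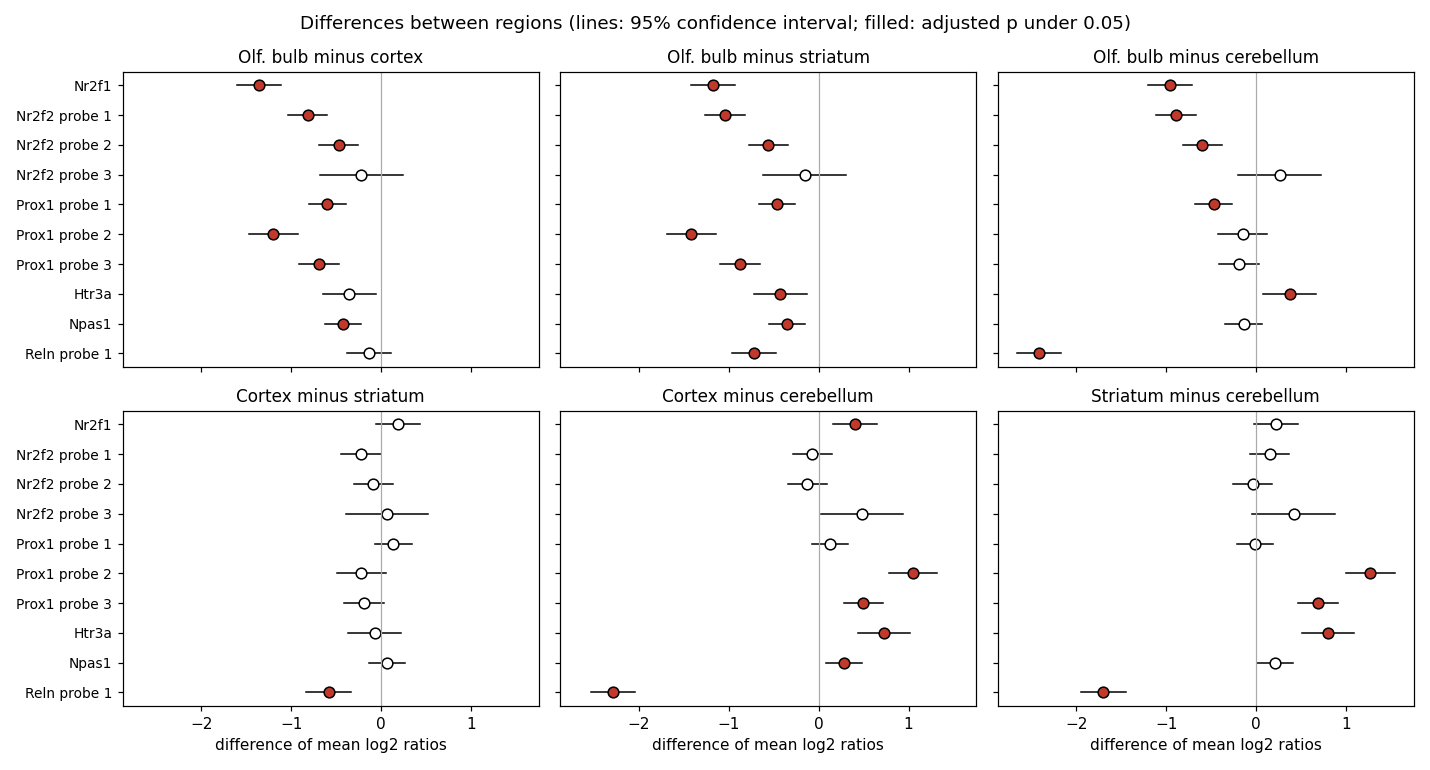
Differences of mean log2 ratios between pairs of regions (x axis) for the 10 tested probes (y axis), with 95% confidence intervals as lines and filled points where the adjusted p is under 0.05. Most points lie left of 0 in the panels of olfactory bulb against cortex and striatum, and Reln probe 1 lies farthest left in the panels against cerebellum.

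Nr2f1 was lower than in the reference in every group, most in whole brain and next in olfactory bulb. Its log2 ratio was -1.14, -1.09 and -1.22 on the cortical arrays, -1.20, -1.31 and -1.50 in striatum and -1.58, -1.44 and -1.66 in cerebellum. On the olfactory bulb arrays it was -2.41, -2.42 and -2.70. The bulb arrays lay below all other regional arrays, and the cortical and striatal arrays overlapped. Whole-brain arrays were lower still, at -4.09, -3.86, -3.84 and -4.25, a mean 16.1-fold below the reference (adjusted p = 7.6e-20). In order of level, cortex and striatum did not differ beyond their spread (0.19 ± 0.12, adjusted p = 0.288; 95% interval -0.06 to 0.43), nor did striatum and cerebellum (0.22 ± 0.12, adjusted p = 0.148). The bulb was lower than its neighbour cerebellum by -0.95 ± 0.12 (adjusted p = 4.01e-06), than striatum by -1.17 ± 0.12 (adjusted p = 8.07e-07) and than cortex by -1.36 ± 0.12 (adjusted p = 2.44e-07). The cortical excess over cerebellum (0.41 ± 0.12, adjusted p = 0.0145) was not called after scaling between arrays (0.19, adjusted p = 0.441), with the scanner's own log ratio, in the sorted-cell channel alone (0.18, adjusted p = 0.57; 44.2% of the difference), or without cortex replicate 2 or cerebellum replicate 3. The step from cerebellum to the bulb was smaller with median centring of the arrays (-0.57, adjusted p = 0.00324).

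Nr2f2, the relative of Nr2f1, also had its lowest regional level in the bulb on its brighter probes. The log2 ratios of its dimmest probe did not differ between regions by the F test. Probe 1 read -1.69, -2.02 and -2.05 in olfactory bulb, against -0.94, -1.10 and -1.26 in cortex, -0.90, -0.88 and -0.87 in striatum and -1.15 to -0.95 in cerebellum. The bulb arrays did not overlap with those of any other region, and the other 3 regions lay close together. Striatum against cerebellum (0.15 ± 0.10, adjusted p = 0.276) and cortex against cerebellum (-0.07 ± 0.10, adjusted p = 0.66) did not pass the test. The bulb was lower than cortex by -0.82 ± 0.10 (adjusted p = 3.92e-05) and than striatum by -1.04 ± 0.10 (adjusted p = 9.45e-07). Whole brain had -2.00, -2.18, -2.08 and -2.11, below the reference 4.27-fold.

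Nr2f2 probe 2 read -1.47, -1.92 and -1.83 in the bulb, with region means of -1.27 in cortex, -1.19 in striatum and -1.15 in cerebellum. Its bulb differences were smaller than those of probe 1, -0.47 ± 0.11 against cortex (adjusted p = 0.00514) and -0.56 ± 0.11 against striatum (adjusted p = 0.000731). In the sorted-cell channel alone, the first of these was -0.24 (adjusted p = 0.268). For probe 1, the bulb difference from cerebellum of -0.89 ± 0.10 (adjusted p = 2.63e-06) became -0.13 (adjusted p = 0.505) in that channel, since 14.6% of it lay in the sorted cells and the rest in the reference signal, which was 9.99 in the bulb and 9.23 in cerebellum on the normalized log2 scale. The same channel kept the bulb lower than striatum for both probes, at -0.64 and -0.61.

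Probe 3 of Nr2f2, the dimmest, was near the reference everywhere, at -0.06 to 0.13 in cortex, -0.13 to 0.06 in striatum, -0.32 to -0.06 in the bulb and 0.11 to 0.34 in whole brain. In cerebellum it was -1.32 on replicate 1 and 0.05 and -0.08 on the other arrays, and the reference signal of replicate 1 was the one that stood apart (8.33 against 7.01 and 7.09). The cerebellar mean of -0.45 ± 0.16 (adjusted p = 0.0137) was -0.0147 (adjusted p = 0.885) without that array. In the sorted-cell channel alone, probe 3 was lower in the bulb than in cortex (-0.46, adjusted p = 0.0155). The same held against striatum (-0.51, adjusted p = 0.00677) and cerebellum (-0.59, adjusted p = 0.00128). Whether the 3 probes read different transcripts is not known, since their positions within the gene are not given in the sources used here. Endothelial and mural cell genes, which share Nr2f2 with vessels, were lower than in the reference for 7 of 8 genes in olfactory bulb, cortex, striatum and whole brain and for 8 of 8 in cerebellum (32.8% to 38.1% of all probes tested were lower in these groups). Their mean per array ran from -1.22 to -1.03 in the bulb, -1.08 to -0.92 in cortex, -1.09 to -0.75 in striatum, -1.34 to -1.07 in cerebellum and -1.03 to -0.57 in whole brain, and their part in the Nr2f2 values was not tested. Between bulb and cortex the 8 genes ranged from -0.33 for Cldn5 (adjusted p = 0.119) to 0.05 for Cdh5 (adjusted p = 0.906), and none passed the test (15.7% of all probes did, in either direction). In the bulb against striatum, where Nr2f2 probes 1 and 2 were also lower, 3 of the 8 were lower and 1 was higher (26%), with Cldn5 at -1.74 ± 0.14 and Flt1 at 0.91 ± 0.22. Against cerebellum 2 were lower and 1 was higher (39.8%), with Cldn5 at -0.75 ± 0.14.

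Prox1 had probes that disagreed in direction against the reference but all had their lowest regional mean in the bulb. Probe 1, the brightest, was higher than the reference in cortex (0.61, 0.50 and 0.59), striatum (0.44, 0.37 and 0.48) and cerebellum (0.59, 0.24 and 0.50), and lay at the reference in the bulb (-0.06, -0.06 and 0.03). Probe 2 was lower than the reference in all groups, with -0.59, -0.64 and -0.74 in cortex and -0.39, -0.43 and -0.49 in striatum. It was lower still in the bulb (-1.79, -1.89 and -1.88), in cerebellum (-1.60, -2.02 and -1.50) and in whole brain (-1.56, -1.91, -1.96 and -1.50). For probe 2, cortex and striatum thus formed a higher pair, with no overlap with the other groups. The bulb was lower than striatum by -1.42 ± 0.13 (adjusted p = 2.63e-07) and than cortex by -1.20 ± 0.13 (adjusted p = 5.51e-06), and cerebellum was below striatum, with striatum higher by 1.27 ± 0.13 (adjusted p = 5.97e-07). Within each pair of levels the neighbours did not pass the test: cortex minus striatum was -0.22 ± 0.13 (adjusted p = 0.26) and bulb minus cerebellum -0.15 ± 0.13 (adjusted p = 0.39).

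Prox1 probe 3 gave the order of probe 2 among the regions, with -0.21, -0.16 and -0.20 in cortex, 0.13, 0.06 and -0.19 in striatum, -0.71, -1.01 and -0.90 in the bulb and -0.52, -0.89 and -0.65 in cerebellum. It parted from probe 2 in whole brain, where it was higher than the reference (0.72, 0.72, 0.82 and 0.75; adjusted p = 1.59e-09) while probe 2 was 3.32-fold lower. The bulb lay below striatum by -0.88 ± 0.11 (adjusted p = 8.51e-06) and below cortex by -0.69 ± 0.11 (adjusted p = 0.000274). Probe 1 differed less between regions, -0.60 ± 0.10 for bulb against cortex (adjusted p = 0.000415), and with median centring this was -0.37 (adjusted p = 0.0541). Its bulb difference from striatum was -0.46 ± 0.10 (adjusted p = 0.0017). That call was lost with median centring (-0.32, adjusted p = 0.0884) and in the sorted-cell channel alone (-0.24, adjusted p = 0.228). For probe 1 striatum minus cerebellum was -0.01 ± 0.10 (95% interval -0.21 to 0.19), against 1.27 and 0.69 for the other Prox1 probes. In the mean of the 3 probes the cerebellar ratio of Prox1 was -0.65 and that of cortex -0.09, against 0.44 and 0.57 for probe 1, so a direction for the gene against the reference depends on the probe. Under every alternative run the bulb difference from cortex and from striatum kept its sign for all 3 probes, with the calls of probes 2 and 3 kept. The call of probe 3 in cortex (-0.19 ± 0.08, adjusted p = 0.0328) was lost without any 1 of the 3 cortical arrays.

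Npas1 was lower than the reference in every group and varied least among the called probes. It read -0.98, -1.22 and -1.08 in the bulb, -0.90, -1.04 and -0.92 in cerebellum, -0.88, -0.70 and -0.65 in striatum and -0.58, -0.60 and -0.85 in cortex. The bulb and cerebellar arrays overlapped with each other and lay below those of cortex and striatum. Whole brain stood highest, at -0.53, -0.40, -0.49 and -0.43. Neighbours in this order did not pass the test: bulb minus cerebellum was -0.14 ± 0.10 (adjusted p = 0.265), striatum minus cerebellum 0.21 ± 0.10 (adjusted p = 0.0874) and cortex minus striatum 0.07 ± 0.10 (adjusted p = 0.677). The bulb was lower than cortex by -0.42 ± 0.10 (adjusted p = 0.00598) and than striatum by -0.35 ± 0.10 (adjusted p = 0.0106). The latter was not called without olfactory bulb replicate 2 or striatum replicate 3, or with median centring (-0.31, adjusted p = 0.0648). The cortical excess over cerebellum (0.28 ± 0.10, adjusted p = 0.0368) was lost in 10 of 26 alternatives, with adjusted p = 0.27 after scaling between arrays. With median centring the whole-brain ratio moved from -0.46 to 0.03 (adjusted p = 0.732).

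Htr3a, the receptor subunit, was higher than the reference in cortex, striatum, olfactory bulb and whole brain and not in cerebellum. It read 0.93, 1.01 and 0.81 in striatum, 0.54, 1.31 and 0.68 in cortex, 0.55, 0.81, 0.74 and 0.63 in whole brain and 0.51, 0.55 and 0.42 in the bulb. The cerebellar arrays read 0.08, 0.20 and 0.07, below all others. On cortex replicate 2, the highest array, the normalized log2 reference signal was 6.14 against 6.92 and 6.58 on the other cortical arrays, while the sorted signals ran from 7.26 to 7.47. Striatum exceeded cerebellum by 0.80 ± 0.14 (1.74-fold, adjusted p = 0.00022) and cortex exceeded it by 0.73 ± 0.14 (1.66-fold, adjusted p = 0.000822). Cortex and striatum did not differ beyond their spread (-0.07 ± 0.14, 95% interval -0.36 to 0.22).

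The place of the bulb in this order of Htr3a depended on the processing. The bulb was lower than striatum by -0.43 ± 0.14 (adjusted p = 0.0307) and higher than cerebellum by 0.37 ± 0.14 (adjusted p = 0.04), while its difference from cortex was -0.35 ± 0.14 (adjusted p = 0.0949). That difference turned to 0.58 (adjusted p = 0.0667) with the scanner's log ratio and to 0.0187 (adjusted p = 0.921) with no background subtraction, and was -0.48 (adjusted p = 0.0292) with median centring. The call against striatum was lost without any 1 of the 3 bulb arrays or striatum replicate 1 or 2, and with the scanner's log ratio it was -0.04 (adjusted p = 0.893). The call against cerebellum was lost without any 1 of the bulb arrays or cerebellum replicate 1 or 3, and was 1.77 (adjusted p = 2.92e-05) with the scanner's log ratio. Htr3a was dim in the reference, well above background there on 12 of 16 arrays and on 1 of 3 bulb arrays. With the scanner's log ratio, bulb, striatum and whole brain stood at 1.88, 1.93 and 1.59 above the reference and cortex at 1.30.

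Reln probe 1 had the largest regional difference of all member probes, with cerebellum near the reference and every forebrain region well below it. It read 0.12, 0.35 and 0.0004 in cerebellum, against -1.73, -1.62 and -1.26 in striatum, -2.02, -2.06 and -2.29 in cortex and -2.14, -2.35 and -2.27 in the bulb. The cerebellar arrays lay above all others, the striatal arrays came next among the regions without overlap, and those of cortex and bulb overlapped. Whole-brain arrays were tightly grouped at -0.78, -0.71, -0.71 and -0.75. Cerebellum exceeded the bulb 5.33-fold (bulb minus cerebellum -2.41 ± 0.12, adjusted p = 1.49e-11), cortex 4.87-fold (-2.28 ± 0.12, adjusted p = 4.26e-11) and striatum 3.25-fold (-1.70 ± 0.12, adjusted p = 3.22e-09). Striatum was above cortex (cortex minus striatum -0.58 ± 0.12, adjusted p = 0.00264), and bulb and cortex did not pass the test (-0.13 ± 0.12, adjusted p = 0.51). Against the reference itself cerebellum was at 0.16 ± 0.08 (adjusted p = 0.0922), called without cerebellum replicate 3 (0.24, adjusted p = 0.0407) and with median centring (0.30, adjusted p = 0.00474).

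The differences of Reln between regions lay mostly in the sorted channel. The sorted-channel signal was 9.37, 9.86 and 9.20 on the normalized log2 scale in cerebellum and 7.14 to 7.28 in the bulb, whereas the reference signal stayed between 9.20 and 9.57 on all 16 arrays. Of the called differences of Reln between regions, 93.2% to 98.6% lay in the sorted channel. For Prox1 probe 2 the share was 86.4% to 108.2% over its 4 called differences, and for the bulb differences of Nr2f1 it was 104.1% to 129.7%.

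**Figure D3:**
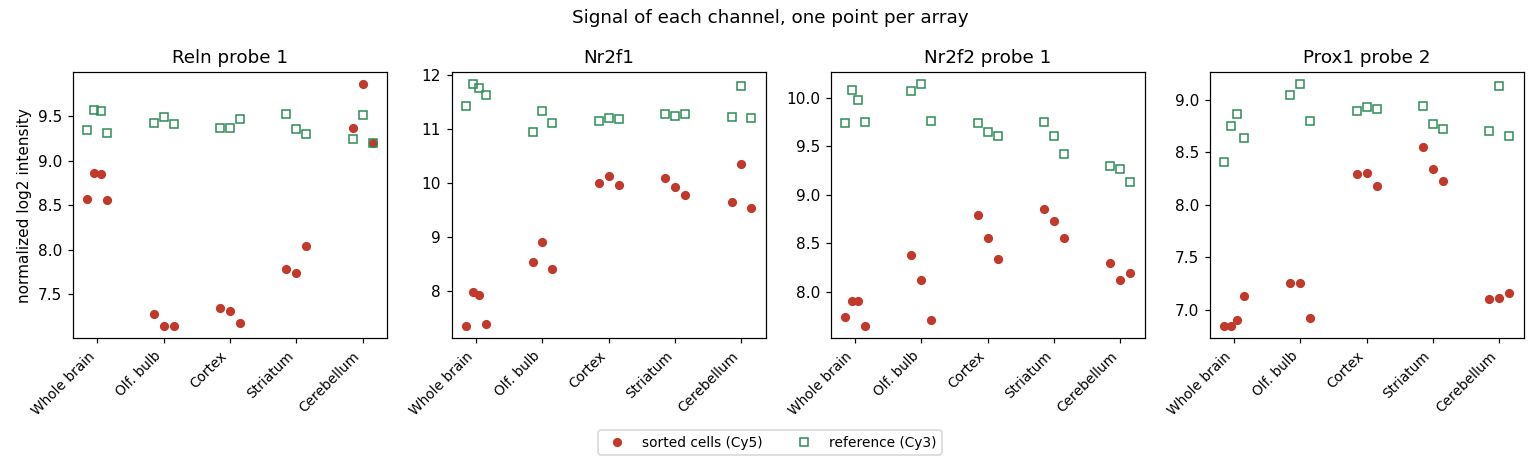
Normalized log2 intensity (y axis) of the sorted cells (filled circles) and of the reference (open squares) on each array, by group (x axis), for 4 probes. The Reln reference signal stays between 9.20 and 9.57 while the sorted signal spans 7.14 to 9.86, and for Nr2f2 probe 1 the reference signal itself is lower in cerebellum than in olfactory bulb.

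Most genes of the Cajal-Retzius cell and cerebellar granule cell lists also had their highest regional level in cerebellum, Tbr1 and Pax6 being the exceptions. Of 6 Cajal-Retzius cell genes, 5 were higher than the reference in cerebellum (38.8% of all probes tested), among them the transcription factor genes Lhx5 (2.52 ± 0.11), Nhlh2 (1.79 ± 0.11) and Ebf3 (1.42 ± 0.08), and Tbr1 was lower (-2.38 ± 0.09, against -2.15 ± 0.09 in striatum). Their mean per array was 0.63 to 0.78 in cerebellum, -1.35 to -1.19 in cortex, -1.35 to -1.15 in striatum, -1.22 to -0.89 in the bulb and -0.60 to -0.54 in whole brain. Lhx5 and Ebf2 are also genes of developing Purkinje cells, so the list is not particular to Cajal-Retzius cells in this tissue. Of 6 cerebellar granule cell genes, 5 were higher in cerebellum (38.8% of all probes tested), with Zic1 at 2.38 ± 0.08, Zic2 at 2.26 ± 0.08, Neurod1 at 1.68 ± 0.10 and Atoh1, the factor of granule cell progenitors, at 0.71 ± 0.08. Pax6 was at 0.50 ± 0.06 in cerebellum and higher in the bulb, at 1.13 ± 0.06. That list's mean per array was 1.14 to 1.49 in cerebellum, 0.08 to 0.23 in the bulb, -0.42 to -0.36 in cortex, -0.11 to -0.09 in striatum and -0.36 to -0.25 in whole brain. Of 5 mitral and tufted cell genes, 2 were higher and 3 lower than the reference in cerebellum (38.8% and 36.4% of all probes tested). The part of any of these cells in the Reln values was not tested.

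In the reelin signalling pathway, the receptors had their lowest regional levels in cerebellum, where the ligand had its highest. Reelin binds the lipoprotein receptors Vldlr and Lrp8 (ApoER2), which signal by way of the adaptor Dab1 and the kinases Fyn and Src. Of 12 pathway genes, 9 differed among the regions by the F test, against 55.9% of all probes tested. Lrp8 was higher than the reference in all groups, by 1.74 ± 0.06 in the bulb, 1.64 ± 0.06 in cortex, 1.39 ± 0.06 in striatum, 0.48 ± 0.06 in cerebellum and 0.41 ± 0.05 in whole brain. Vldlr was lower in cerebellum (-1.09 ± 0.07) than in any other region (0.12 ± 0.07 in the bulb, -0.22 ± 0.07 in cortex and -0.17 ± 0.07 in striatum). Bulb minus cerebellum was 1.26 ± 0.08 for Lrp8 and 1.21 ± 0.09 for Vldlr, both called.

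Dab1 was lower than the reference in all groups, from -2.07 ± 0.07 in whole brain to -1.11 ± 0.08 in the bulb. Cdk5r1, the activator p35 of the kinase Cdk5, was higher in the forebrain regions (0.30 to 0.64) and lower in cerebellum (-0.54 ± 0.08). Fyn was higher in the bulb (0.50 ± 0.09), cortex (0.47 ± 0.07) and striatum (0.71 ± 0.07) and was at -2.92 ± 0.06 in whole brain. In counts, 4 pathway genes were higher and 5 lower in the bulb, 3 and 6 in cortex, 4 and 5 in striatum, 1 and 7 in cerebellum and 2 and 9 in whole brain. Of all probes tested, 34.1% to 38.8% were higher and 32.8% to 36.4% lower in the regions, and 41.2% and 38.1% in whole brain. The list's median ran from -0.37 in cerebellum to -0.09 in the bulb and striatum and was -0.92 in whole brain, against 0.04 over all probes there.

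Of 8 relatives and partners of the members, 6 differed among regions by the F test (55.9% of all probes), with ranges from 0.38 for Npas3 to 0.66 for Arnt2. Nr2f6, the third nuclear receptor of the Nr2f family, was higher than the reference in all groups (0.40 ± 0.08 in the bulb to 0.91 ± 0.07 in whole brain), opposite to Nr2f1. Htr3b, the second subunit of the serotonin 3 receptor, was at the reference everywhere (0.02 to 0.10, none called), with no regional difference by the F test (adjusted p = 0.859). Npas3 was lower in all groups, by -0.76 in cortex and -0.62 ± 0.06 in cerebellum. Arnt2, a partner of PAS domain factors in neurons, was lower in all groups and lowest in cerebellum (-1.87 ± 0.08), while its relative Arnt was higher in the forebrain regions (0.31 to 0.69). The list had 2 higher and 3 lower in the bulb, 3 and 3 in cortex, 3 and 3 in striatum, 2 and 4 in cerebellum and 2 and 5 in whole brain. Over all probes tested the shares were 34.1% to 38.8% higher and 32.8% to 36.4% lower in the regions, and 41.2% and 38.1% in whole brain.

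A list of 11 other genes of caudal ganglionic eminence interneurons held several with their highest regional level in the bulb. Sp8, a zinc finger factor of this lineage and of olfactory bulb interneurons, was higher than the reference in the bulb by 3.34 ± 0.08, in striatum by 2.92 ± 0.08 and in cortex by 2.74 ± 0.08, and by 0.73 ± 0.08 in cerebellum. Adarb2, an RNA-binding relative of RNA editing enzymes, was also highest in the bulb (2.24 ± 0.09), with 1.46 ± 0.09 in cortex, 1.35 ± 0.09 in striatum and 1.00 ± 0.09 in cerebellum. Calb2 (calretinin) was closer to the reference in the bulb (-0.22 ± 0.07) and at -2.36 ± 0.07 in cortex and -2.30 ± 0.07 in striatum. These 3 genes had their highest mean in the bulb, where Nr2f1, the brighter Nr2f2 probes, Prox1, Npas1 and Reln probe 1 had their lowest regional mean. The list as a whole was split: 3 genes were higher and 3 lower in the bulb than in cortex, 4 and 2 against striatum, and 3 and 2 against cerebellum. Of all probes, 15.7%, 26% and 39.8% were called in these comparisons in either direction. The lower genes against cortex were Kit (-0.50 ± 0.12), Cxcl14 (-0.38 ± 0.11), a chemokine gene, and Cnr1 (-0.31 ± 0.10), the cannabinoid receptor gene.

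Several peptide and late markers of the class were low or flat at this age. Vip was within -0.07 and 0.03 of the reference in all groups, and Cck was lower in all groups (-1.33 to -1.07) with no regional difference by the F test (adjusted p = 0.147). Lamp5 (-2.40 to -1.24) and Id2 (-2.66 to -1.49) were lower in all groups, and Ndnf was at -0.43 to -0.06. On whole-brain replicates 1, 2 and 3, Cxcl14 was instead above the reference, at 0.46, 0.59 and 0.62. Kit, a receptor kinase that is also a gene of cerebellar interneurons, was higher in cerebellum (0.47 ± 0.07) and lower in every other group. Of the 11 genes, 7 differed among regions by the F test, a share near the 55.9% of all probes, and the counts of higher and lower genes were 2 and 7 in the bulb, 3 and 7 in cortex, 3 and 7 in striatum, 4 and 5 in cerebellum and 3 and 6 in whole brain. Over all probes, 34.1% to 41.2% were higher and 32.8% to 38.1% lower in the groups. Between cortex and striatum the 11 genes differed by -0.18 to 0.24, and none passed limma's test (17.5% of all probes did).

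Genes of the medial ganglionic eminence, the neighbouring interneuron source, separated cortex from striatum. Nkx2-1, the factor that sets this lineage, was at 1.00 ± 0.10 in striatum, -0.01 ± 0.10 in cortex, -1.36 ± 0.10 in cerebellum and -1.87 ± 0.10 in the bulb, and cortex minus striatum was -1.01 ± 0.14. Lhx6 (0.78 ± 0.07 in striatum, 0.31 ± 0.07 in cortex), Lhx8 and Sst also differed between cortex and striatum, each higher in striatum. Of 7 tested genes, 4 were called in that comparison, all lower in cortex (17.5% of all probes were called in either direction). Pvalb, the remaining gene of the list, did not pass the filter on dim probes.

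**Figure D4:**
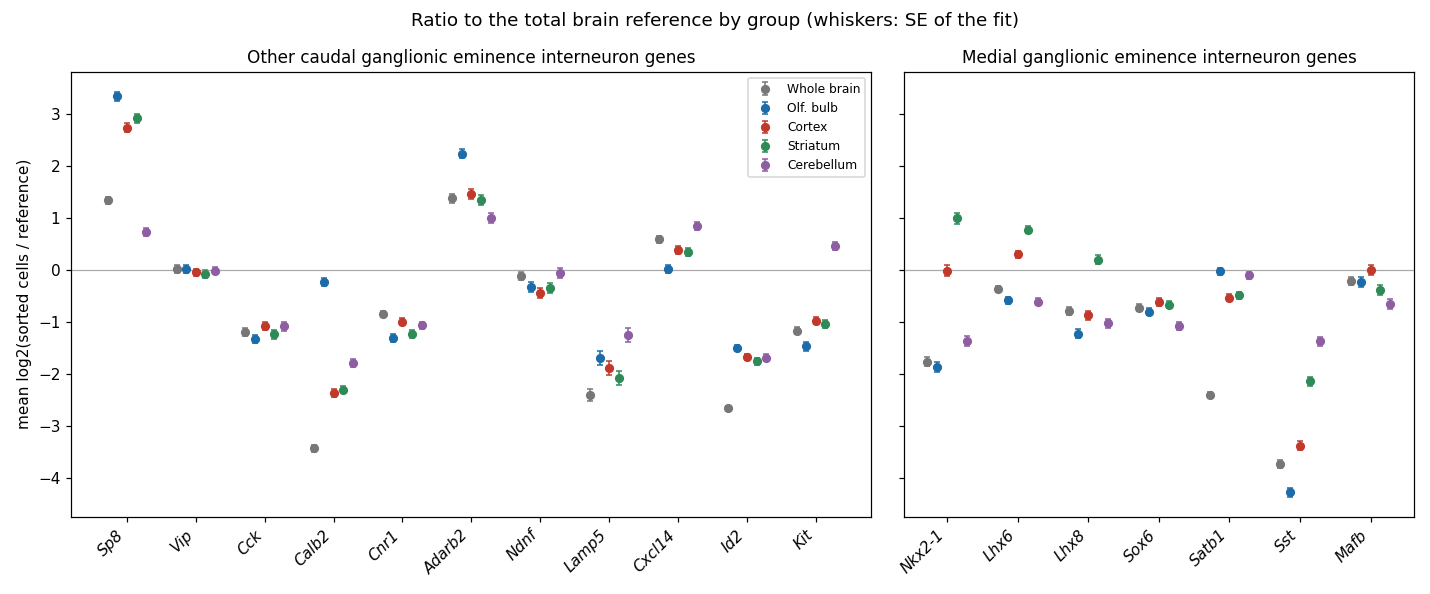
Mean log2 ratio of sorted cells to the total brain reference (y axis) for 11 other genes of caudal and 7 of medial ganglionic eminence interneurons (x axis), coloured by group, with the SE of the fit as whiskers. Sp8, Adarb2 and Calb2 are highest in olfactory bulb, and Nkx2-1, Lhx6 and Lhx8 are highest in striatum.

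The whole-brain sort, whose tissue also includes midbrain and hindbrain, stood apart from the mean of the 4 regions for 9 of 10 probes, 4 higher and 5 lower (29.9% and 32.9% of all probes tested). Nr2f1 differed most, lower in whole brain by -2.37 ± 0.08 (5.17-fold, adjusted p = 4.33e-15), and by -1.55 after scaling between arrays. Nr2f2 probes 1 and 2 were also lower (-0.86 ± 0.07 and -0.62 ± 0.07), and by -0.40 and -0.17 (adjusted p = 0.0453 for the latter) after that scaling. Probe 3 of Nr2f2, the dimmest, was instead higher by 0.42 ± 0.16 (adjusted p = 0.0256). That call was lost with median centring and without whole brain replicate 2, 3 or 4. Reln probe 1 was higher by 0.71 ± 0.08 (adjusted p = 3.3e-07), Npas1 by 0.41 ± 0.07 (adjusted p = 3.16e-05) and Prox1 probe 3 by 1.19 ± 0.07 (adjusted p = 2.88e-11). Prox1 probe 2 went the other way, at -0.57 ± 0.09 (adjusted p = 1.93e-05; -0.22 after scaling), and probe 1 was lower by -0.19 ± 0.07 (adjusted p = 0.0236), which was not called without whole brain replicate 2 or 3. Htr3a did not pass the test (0.09 ± 0.10, 95% interval -0.12 to 0.30). Gad1 itself was lower by -2.34 ± 0.09 in this comparison, and scan day and group coincide here as stated above.

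The genes with the most similar pattern were sought over the 12 regional arrays among 11595 genes that differed between regions, by Pearson's correlation of log2 ratios with the brightest probe of each member. For Reln these were Sez6l (r = 0.995), Gjc1 (0.988) and Nt5dc2 (0.986), and Sez6l stood at 0.02 in cerebellum and at -1.93 in the bulb. For Nr2f1 they were H1f0 (0.969), Dusp26 (0.961) and Mgst3 (0.956), and for Nr2f2 Rundc3b (0.973), Nyap1 (0.965) and Btbd17 (0.963). For Prox1 they were C1s1 (0.968), Tas2r135 (0.962) and Pakap (0.958). Correlations were lower for Htr3a, with Klhl9 (0.957), Pik3cb (0.940) and Zbtb20 (0.940), and for Npas1, with Scrg1 (0.927), Ldb2 (0.916) and Gdpd2 (0.907). No member was among the 3 genes most similar to another. These correlations are descriptions: the arrays fall into 4 regions and share 1 reference, and high values are common among so many genes.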

How the data were processed

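Agilent arrays in 2 colours were quantified with Agilent Feature Extraction 8.1.1.1, per the submitters' processing notes. Per the file headers, the deposited scanner output gives each spot's mean intensity and its local median background intensity, unsubtracted. Its log10 ratio (Cy5 over Cy3) was background-subtracted with detrending and then dye-normalized, per the file headers. Values in the deposited series matrix matched that log10 ratio within 0.005, with column medians of 0 to 0.0334. The genome build behind the array's probe names is not given in the sources used here.

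Log2 ratios came from the intensities through limma 3.58.1 (R 4.3.3; figures with matplotlib 3.10.9 and pandas 2.3.3): normexp background correction with an offset of 50, then loess within arrays, with controls and outlier-flagged spots at weight 0. Replicate spots were averaged, giving 41173 probes. A probe was kept if 3 or more arrays had it well above background for the sorted cells, or 8 or more for the reference (39226 kept), and 1 spot with an incomplete line was left out. Probes took symbols from RefSeq by accession (21444), symbol (5431) or synonym (4636), and 9662 kept the array's name. All 16 arrays were fitted with 5 group means (lmFit, eBayes). The SE and 95% intervals are those of limma, and p-values were adjusted by Benjamini-Hochberg over all probes tested, within each comparison. The number of arrays limits the precision. The scripts were tested on simulated data. Alternatives were the scanner's log ratio, no background subtraction, median centring, scaling between arrays, other filters, the mean of a gene's probes, the sorted-cell channel alone, the regional arrays alone, a replicate block, and each array left out.

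All probes of the 6 genes are named, and any gene of 12 lists, represented by its brightest probe. The members and lists were chosen with earlier results of these data known, so that nothing here is independent support for them.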

Additional observations from a re-analysis of the deposited data

Results flagged for a closer look

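The following differences between groups were called by limma, were at least 2-fold and are listed for a closer look. For Reln probe 1, olfactory bulb, cortex and striatum were below cerebellum by -2.41, -2.28 and -1.70 on the log2 scale. Nr2f1 was lower in whole brain than in the mean of the regions by -2.37, and lower in olfactory bulb than in cortex (-1.36) and striatum (-1.17). Prox1 probe 2 was lower in olfactory bulb than in striatum (-1.42) and cortex (-1.20), and higher in striatum (1.27) and cortex (1.05) than in cerebellum. Prox1 probe 3 was higher in whole brain than in the regions by 1.19, where probe 2 of the same gene was lower by -0.57. Nr2f2 probe 1 was lower in olfactory bulb than in striatum by -1.04. The whole-brain differences coincide with the scan day and cannot be told apart from it.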

How the results depend on the processing

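Of the values of member probes, 3024 kept their call under the alternatives (39 of these, called in neither fit, changed sign), 55 were no longer called, 32 became called and 11 reversed. With the mean of a gene's probes, only 6 genes are counted in place of 10 probes, so that fewer were called: 4 in cerebellum, 5 in cortex and 5 in striatum against the reference, 4 for olfactory bulb minus cortex and 4 for whole brain minus regions. Against probe 1 of Prox1, that mean turned cerebellum to -0.65, cortex to -0.0918, striatum to -0.0016 and whole brain to -0.27, striatum minus cerebellum to 0.65 and whole brain minus regions to 0.14. Median centring turned Npas1 in whole brain to 0.0274, Prox1 probe 1 in olfactory bulb to 0.46 and in whole brain minus regions to 0.0386, and Prox1 probe 3 in cortex to 0.0096. The sorted-cell channel alone turned Nr2f2 probe 3 to -0.59 for olfactory bulb minus cerebellum. The cause of the last 2 settings' changes was not tested.

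Calls over all probes varied with single arrays: cortex minus striatum had 6849 and 3566 to 7993 with an array left out (without cortex replicates 1 or 3 or striatum replicates 1 or 2 it was 3639, 3566, 3859 and 4115), and olfactory bulb minus cortex 6142 and 3672 to 7025 (3672 without olfactory bulb replicate 1, 4045 and 3741 without cortex replicates 1 and 3). With the mean of a gene's probes, counts were 4388, 3914, 6907 (cortex minus cerebellum, 10402) and 6742 (olfactory bulb minus striatum, 10207). The sorted-cell channel alone gave 9302 for olfactory bulb minus cortex and 8678 for striatum minus cerebellum (14604), where 58.6% in place of 47.6% of calls were higher. Median centring moved the share of higher calls from 53% to 67.6% for olfactory bulb minus cortex and from 50.9% to 62.8% for olfactory bulb minus striatum. The scanner's log ratio moved the whole-brain median of all probes from 0.04 to 0.15. Without striatum replicate 2, 129 of 130 results kept their call. Deviations of same-numbered replicates correlated at r of -0.119 to 0.247 over 18 pairs (median 0.026). Replicates with different numbers gave r of -0.242 to 0.24 over 36 pairs (median -0.02). Whether same-numbered arrays share animals was not tested. A fit with the replicate number as a block changed the call of 1 of 70 results. That result was Npas1 in cortex minus cerebellum (0.28, adjusted p = 0.056). Signal over background limits what the dim probes of Htr3a, Nr2f2 (probe 3) and Reln (probe 2) can show.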

Other observations

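A further probe, named by an accession (AK087528) on the array and described there as a product of Nr2f2, fell outside the choice by gene name. It was at -0.36 ± 0.08 in olfactory bulb and -0.27 ± 0.07 in whole brain (both called by limma). In cortex, striatum and cerebellum it was between -0.15 and -0.10 (none called). Among the dissected regions its mean was lowest in the bulb, but no bulb difference passed limma's test. The bulb differed from cortex by -0.27 ± 0.11 (adjusted p = 0.116), from striatum by -0.22 ± 0.11 (adjusted p = 0.151) and from cerebellum by -0.21 ± 0.11 (adjusted p = 0.146).

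Genes of astrocytes and radial glia were lower than the reference for 5 of 6 genes in every group, and 1 was higher in each dissected region. Those of glutamatergic neurons were lower for 3 to 5 of 5, with Neurod6, a factor of pyramidal neurons, between -2.99 and -1.77. In cerebellum 1 of the glutamatergic genes was instead called higher, the highest value of that list there being 0.18. Microglial genes had 5 of 5 lower in olfactory bulb and 2 of 5 lower in cerebellum. Of the same 5 genes, 2 were higher in whole brain and 1 in each of cortex, striatum and cerebellum. Of the mitral and tufted cell genes, 4 of 5 were lower in olfactory bulb, where Eomes was at -0.73 ± 0.07, and 1 was called higher, at 0.48. Over all probes tested, 34.1% to 41.2% were higher and 32.8% to 38.1% lower than the reference in the groups.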
